A study of Saccharomyces cerevisiae with 17 samples.

Results

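The genes described here encode the subunits of the budding yeast proteasome and Rpn4, the transcription activator of these genes. They were chosen by systematic name: 14 subunits of the core particle, 10 of the base and 8 of the lid of the regulatory particle, and RPN4, 33 genes in all among 5326 named in the table of RNA levels. A row was found for 32 of them. The exception was RPN5 (YDL147W), a lid subunit, which has no row in the table as used here. All 32 had a mean RPKM (a read count divided by gene length and library size) of at least 10 over the genotypes, the minimum for comparison, which 3657 genes reached. The list was drawn up with earlier results of these data known, so its values are a description and no difference was tested.

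The proteasome is the protease that degrades proteins tagged with ubiquitin. Its core particle is a stack of rings of alpha and beta subunits with the proteolytic sites inside, on the beta subunits Pre3, Pup1 and Pre2. The regulatory particle caps the core: its base holds a ring of ATPases, Rpt1 to Rpt6, that unfold substrates, and its lid holds Rpn11, which removes the ubiquitin chain. Rpn4 binds a shared promoter element of these genes and is itself degraded rapidly by the proteasome, so that its level rises when proteolysis is impaired.

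RNA was sequenced from 4 genotypes of haploid MATa yeast of the BY4741 background, each with 2 biological replicate libraries: wild type, a deletion of set2, the point mutant H3K36A and a deletion of eaf3. The deletions are called the set2 mutant and the eaf3 mutant below. Set2 methylates histone H3 at the lysine that is alanine in H3K36A, and Eaf3 recognises that methylated lysine through a chromodomain. All strains carry the his3, leu2, met15 and ura3 auxotrophies in the labels and were grown in rich glucose medium (YPD) at 30 °C to mid-log phase. The sources used here do not say how the histone genes were replaced or whether each mutant is a single clone. STE2, MFA1 and MFA2, genes of the MATa cell type, have rows, and each was lowest in the eaf3 mutant. STE2 had 418 RPKM in wild type, 504 in the set2 mutant, 513 in H3K36A and 179 in the eaf3 mutant. MFA2 had 73.9, 125, 98.6 and 33.7 in the same order. A row alone does not check the cell type, and the cause of the lower values was not tested. SET2, EAF3, HHT1 and HHT2 have no row in the table as used here, so the mutations were not checked on their own genes. Of the auxotrophy genes, HIS3 has a row, with 61.2 RPKM in wild type, 72.1 in the set2 mutant, 141 in H3K36A and 69.4 in the eaf3 mutant, while LEU2, MET17 (also called MET15) and URA3 have none in the table as used here.

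Every value below is the authors' mean RPKM of a genotype. The spread between replicates and the number of reads are unknown, and no p-value could be had. Most genes had lower RPKM in the mutants: the median log2 ratio to wild type over the genes compared was -0.23 in the set2 mutant, -0.32 in H3K36A and -0.36 in the eaf3 mutant. The small RNA genes held 22.7% of all wild-type RPKM and between 27.1% and 29.9% in the mutants, and their part in this shift was not tested. Ratios are therefore given as relative log2, that is log2((mutant + 1)/(wild type + 1)) minus the median gene of the same comparison, unless the authors' scale is named. RPKM is a share of each library, so a lower value need not mean less of a transcript per cell. Fewer cells with a transcript and less of it per cell cannot be told apart either.

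All 31 subunits with a row had their highest RPKM in wild type, as did RPN4; of the genes compared, 61.1% did. The median subunit had a relative log2 of -0.55 in the set2 mutant, -0.68 in H3K36A and -0.70 in the eaf3 mutant. In the set2 mutant 13 of 31 subunits were lower than the median gene by 1.5-fold or more, against 11.5% of all genes compared. In H3K36A the count was 17 against 21.2% of genes, and in the eaf3 mutant 18 against 18.4% of genes. No subunit was at least 1.5-fold higher in any mutant, against 7.08%, 17.9% and 12.4% of genes in the same order. At 2-fold, 7 subunits were lower in each mutant, against 2.9%, 9.68% and 7.03% of genes. The edge of the 1.5-fold class was close: in the eaf3 mutant PRE4 lay just inside it at -0.59 and RPN13 just outside at -0.57.

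On the authors' own scale, without the shift removed, 22, 23 and 24 of the 31 subunits were at least 1.5-fold lower, against 21.5%, 35.2% and 34.2% of genes. The RPKM of the 31 subunits summed to 3616 in wild type, 2316 in the set2 mutant, 2109 in H3K36A and 1993 in the eaf3 mutant. As a share of all RPKM outside the small RNA genes, the subunits went from 0.413% in wild type to 0.261%, 0.250% and 0.236%.

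**Figure D1:**
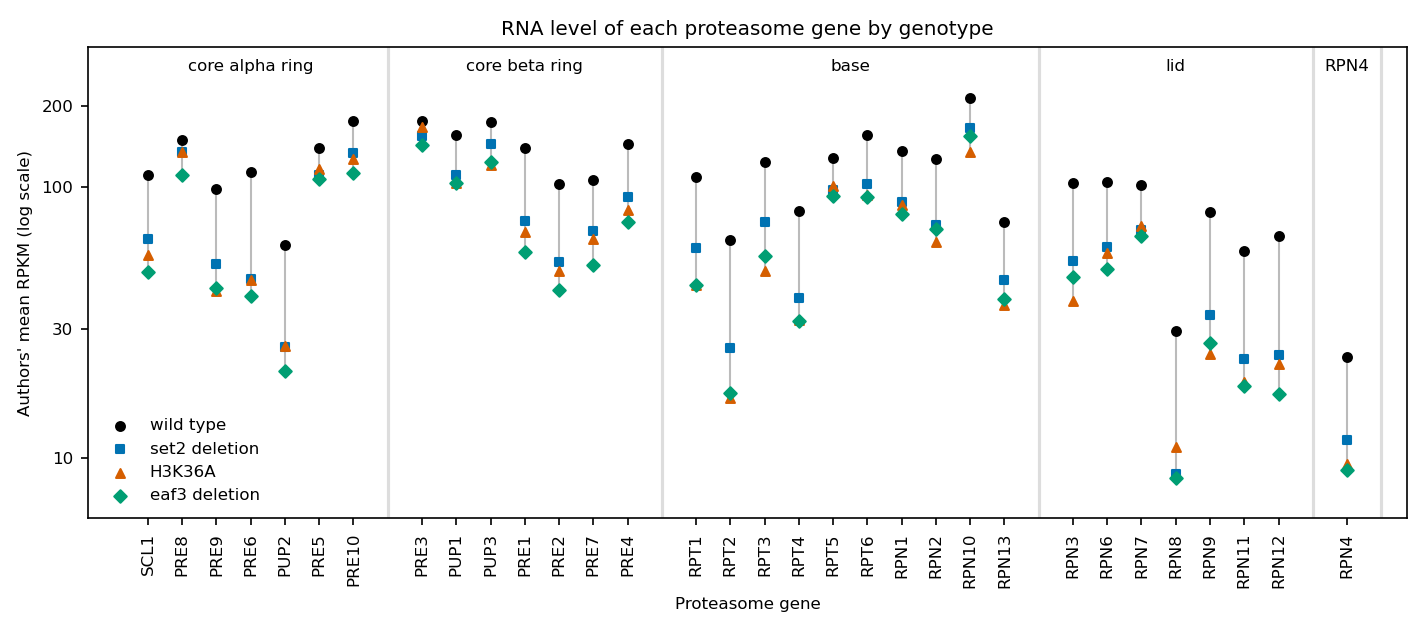
Authors' mean RPKM (vertical axis, log scale) of each proteasome gene with a row, ordered by subcomplex, in wild type (black circles), the set2 mutant (blue squares), H3K36A (orange triangles) and the eaf3 mutant (green diamonds); grey lines join the lowest and highest genotype. Wild type is the top marker for all 32 genes, the gap is narrow for PRE8, PRE3 and PRE5 and wide for RPT2, RPN8 and RPN12.

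RPN4 (YDL020C, chromosome IV 415113 to 416708, sacCer3) had 23.7 in wild type, 11.6 in the set2 mutant, 9.49 in H3K36A and 9.02 in the eaf3 mutant. These are 49.0%, 40.0% and 38.0% of the wild-type level. The relative log2 was -0.74, -0.92 and -0.95, and 7.08%, 11.3% and 7.68% of the genes compared had lower ratios. In wild type and in H3K36A the activator had the lowest RPKM of all 32 genes, and in the other 2 genotypes only RPN8 was lower.

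The alpha ring forms the outer gate of the core particle, and its members split into low and near-unshifted ratios. The 7 genes had median relative log2 of -0.55 in the set2 mutant, -0.65 in H3K36A and -0.81 in the eaf3 mutant. PRE6, the fourth alpha subunit (YOL038W), had 114 in wild type, 46.1 in the set2 mutant, 45.5 in H3K36A and 39.6 in the eaf3 mutant. PUP2, the fifth (YGR253C), had 61.6, 25.7, 26.1 and 21.0 in the same order and was the lowest of the core in every genotype. PRE9, the third and the only alpha subunit known to be dispensable for growth, had 98.8, 52.3, 41.6 and 42.6. These 3 genes were at least 1.5-fold lower in all mutants, as were 9.76% of the genes compared.

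SCL1, the first alpha subunit, had 111 in wild type, 64.7 in the set2 mutant, 56.3 in H3K36A and 48.9 in the eaf3 mutant. The other alpha genes stayed closer to wild type. PRE8, the second, had 149.9 in wild type against 135, 135 and 111. PRE5, the sixth, had 139.7 against 111, 117 and 107. PRE10, the seventh, had 176 against 134, 127 and 114. Relative to the median gene PRE8 was at 0.07 in the set2 mutant and 0.17 in H3K36A, and PRE5 at 0.06 in H3K36A, while on the authors' scale both were below wild type in every mutant.

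Of the proteolytic beta subunits, PRE2 had the lowest ratio and PRE3 the highest in each mutant. PRE2 (YPR103W, chromosome XVI 732349 to 733212), which carries the chymotrypsin-like site, had 103 in wild type, 52.9 in the set2 mutant, 49.2 in H3K36A and 41.7 in the eaf3 mutant, with relative log2 of -0.72, -0.73 and -0.93. PUP1 (YOR157C), which carries the trypsin-like site, had 156, 111, 104 and 104, with -0.26, -0.27 and -0.22. PRE3 (YJL001W, chromosome X 435163 to 435926), which carries the caspase-like site, had 176, 155, 168 and 144.

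PRE3 lay above the median gene in all 3 mutants, at 0.05, 0.25 and 0.07, and below wild type on the authors' scale. It is the one member whose annotated span is not a multiple of 3 bases, and it is known to contain an intron. In wild type these 3 subunits, which the particle holds in equal number, spanned 103 to 176, and in the eaf3 mutant 41.7 to 144.

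The beta subunits without a proteolytic site also spread. PRE1 (YER012W) had 140.2 in wild type, 75.3 in the set2 mutant, 68.8 in H3K36A and 57.8 in the eaf3 mutant. PRE7 had 107, 69.1, 64.4 and 51.9, and PRE4 had 144, 92.6, 82.8 and 74.6. PUP3 stayed nearer to wild type, with 174, 145, 121 and 124. The median of the 7 beta genes was -0.40, -0.41 and -0.59. PRE1 and PRE2 were the members at least 1.5-fold lower in all mutants, 2 of 7 against 9.76% of the genes compared.

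In the base, the ATPase genes differed widely among themselves. RPT2 (YDL007W, chromosome IV 438047 to 439360), whose tail opens the core gate, had 64.1 in wild type, 25.6 in the set2 mutant, 16.7 in H3K36A and 17.4 in the eaf3 mutant. Its relative log2 of -1.07, -1.57 and -1.47 was the lowest of the base in each mutant, and 2.11%, 2.60% and 1.94% of genes had lower ratios. RPT5 (YOR117W), of the same ring, had 129, 98.2, 101 and 93.3, with -0.16, -0.03 and -0.10. The ring takes 1 copy of each, and the RPKM of RPT5 was above that of RPT2 in every genotype, by the widest margin in H3K36A.

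RPT1 had 109.6 in wild type, 59.8 in the set2 mutant, 43.5 in H3K36A and 43.7 in the eaf3 mutant. RPT3 had 125, 74.4, 49.2 and 55.7, and RPT4 81.6, 38.9, 32.3 and 32.0. RPT6 had 156, 103, 93.9 and 92.1. The median relative log2 of the 6 ATPase genes was -0.57 in the set2 mutant, -0.997 in H3K36A and -0.87 in the eaf3 mutant, with 3, 4 and 4 of them at least 1.5-fold lower, against 11.5%, 21.2% and 18.4% of genes.

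The remaining base subunits include the large scaffold proteins Rpn1 and Rpn2 and the ubiquitin receptors Rpn10 and Rpn13. RPN10 (YHR200W) had 215 in wild type, 166 in the set2 mutant, 136 in H3K36A and 154 in the eaf3 mutant. It had the highest RPKM of all subunits in wild type and in the set2 and eaf3 mutants, and PRE3 did in H3K36A. RPN13 had 74.8, 45.5, 36.9 and 38.8, RPN1 had 137, 88.2, 86.5 and 80.1, and RPN2 had 127, 72.7, 63.0 and 70.0. None of these 4 was at least 1.5-fold lower in the set2 or eaf3 mutant, against 11.5% and 18.4% of genes. RPN2 in the set2 mutant and RPN13 in the eaf3 mutant lay just outside, at -0.57 each. In H3K36A RPN2 and RPN13 were lower by that much, at -0.68 each, against 21.2% of genes. On the authors' scale 3, 4 and 3 of the 4 were, against 21.5%, 35.2% and 34.2% of genes.

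The lid had the lowest median of the subcomplexes in every mutant. Over the 7 listed genes with a row it was -1.01 in the set2 mutant, -1.11 in H3K36A and -1.21 in the eaf3 mutant. The lid also had the lowest median RPKM in wild type, 80.9 against 126 in the base, 114 in the alpha ring and 144 in the beta ring. Subunits with lower wild-type RPKM had lower ratios, as given below, and the part of lid membership itself was not tested. SEM1, a lid subunit outside the list, is given below with the associated proteins. RPN8 (YOR261C, chromosome XV 815915 to 816931), the partner of the deubiquitinase, had 29.5 in wild type, 8.78 in the set2 mutant, 11.0 in H3K36A and 8.44 in the eaf3 mutant. In the set2 mutant its relative log2 of -1.41 was the lowest of all subunits, and 0.465% of the genes compared were lower. RPN11 (YFR004W), the deubiquitinase itself, had 58.5, 23.2, 19.1 and 18.6, with -1.07, -1.25 and -1.25.

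RPN12 (YFR052W, chromosome VI 252505 to 253329), a late-joining lid subunit, had 66.4 in wild type, 24.1 in the set2 mutant, 22.4 in H3K36A and 17.3 in the eaf3 mutant. Its relative log2 of -1.52 in the eaf3 mutant was the lowest of any subunit there. Of the scaffold subunits of the lid, RPN9 and RPN3 were lowest in H3K36A. RPN9 had 80.9, 33.8, 24.3 and 26.7, and RPN3 had 104, 53.7, 38.1 and 46.8. RPN6 and RPN7, further scaffold subunits, were nearer to wild type than RPN9 and RPN3. In the eaf3 mutant RPN6 was still at least 1.5-fold lower than the median gene, at -0.70 against -0.78 for RPN3. RPN7 had 102, 69.7, 71.8 and 66.2, and RPN6 had 105, 60.3, 57.2 and 50.1.

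RPN8, RPN9, RPN11 and RPN12 of the lid and RPT2 of the base were lower than the median gene by 2-fold or more in all 3 mutants, 5 of 31 subunits against 2.6% of genes. At 1.5-fold it was 13 of 31 against 9.76%: PRE6, PRE9, PUP2, PRE1, PRE2, RPT1, RPT2, RPT4, RPN3, RPN8, RPN9, RPN11 and RPN12. The 3 comparisons share the wild-type column, so their overlap is not independent. RPN8 was compared only because of its wild-type value, so its place in these counts and in those given earlier is not free of the filter. At the other end, PRE3, PRE5, PRE8, PRE10, PUP1, PUP3 and RPT5 stayed within 1.25-fold of the median gene in every mutant, 6 core genes and 1 of the base. These are 7 of 31 subunits against 26.1% of genes, a share near that of all genes.

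**Figure D2:**
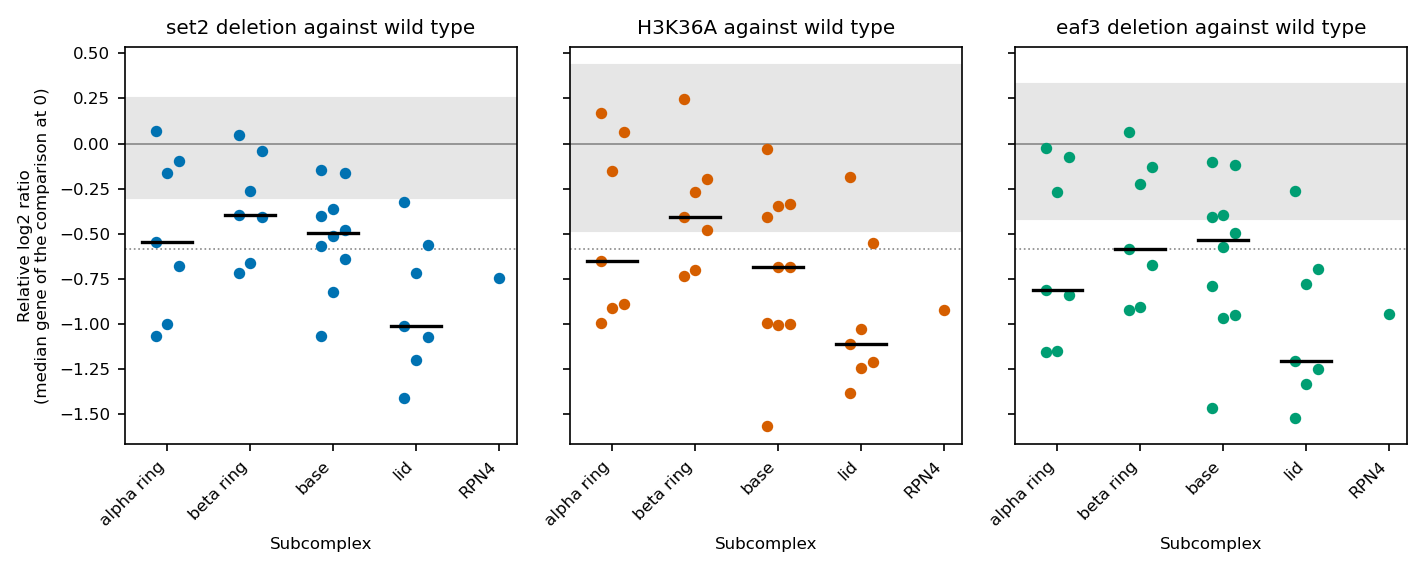
Relative log2 ratio to wild type (vertical axis, 0 is the median gene of the comparison) of each subunit by subcomplex and of RPN4, in 1 panel per mutant; black bars are medians, the grey band spans the lower to the upper quartile of all genes compared, and the dotted line marks 1.5-fold lower. The lid medians of -1.01, -1.11 and -1.21 lie below those of the other subcomplexes, while single points of all subcomplexes overlap.

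Core and regulatory particle were then set side by side. The median over the 14 core genes was -0.40 in the set2 mutant, -0.44 in H3K36A and -0.63 in the eaf3 mutant. Over the 17 genes of the regulatory particle it was -0.57, -0.995 and -0.78, lower than the core by 0.17, 0.55 and 0.15 on the log2 scale. The values of both particles overlapped in every mutant, and in the eaf3 mutant the base alone, at -0.53, lay above the core. In H3K36A the gap was 0.40 without RPN8, 0.38 with a pseudocount of 5, 0.27 within quartiles of wild-type RPKM and 0.23 after quantile normalization. Quantile normalization left the regulatory particle lower by 0.09 in the eaf3 mutant, and centring within quartiles of gene length left it lower by 0.11 in the set2 mutant. The lid minus base difference of medians was -0.52, -0.43 and -0.67, and without RPN8 it was -0.37, -0.48 and -0.46. In the set2 mutant it was -0.37 within quartiles of wild-type RPKM. In the eaf3 mutant it was -0.49 after quantile normalization and -0.52 with a pseudocount of 5. The summed RPKM of the core was 68.6%, 65.2% and 58.4% of wild type, that of the base 63.4%, 54.1% and 55.6%, and that of the lid 50.0%, 44.6% and 42.8%.

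Levels among the subunits, which the particle needs in near equal amounts, differed more in the mutants than in wild type. In wild type the 31 genes ran from 29.5 for RPN8 to 215 for RPN10, a 7.29-fold range, with an SD of 0.60 on the log2 scale. The range was 18.9-fold in the set2 mutant, 15.2-fold in H3K36A and 18.3-fold in the eaf3 mutant, with SDs of 0.96, 0.996 and 1.02. Over all genes compared the SD went from 1.96 in wild type to 2.09, 2.14 and 2.13.

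The subunits with the lower wild-type RPKM had the lower ratios. The 10 lowest in wild type, at 29.5 to 102, had median relative log2 of -1.01 in the set2 mutant, -1.01 in H3K36A and -1.18 in the eaf3 mutant. The 10 highest, at 139.7 to 215, had -0.16, -0.23 and -0.18. Across the 31 subunits Spearman's rho between wild-type RPKM and relative log2 was 0.82, 0.75 and 0.79, against 0.17, 0.11 and 0.14 across the 1788 genes compared in the same range of wild-type RPKM. Genes are not independent replicates, and wild-type RPKM is also the denominator of each ratio. With gene length, rho over the subunits was -0.29, -0.34 and -0.22. Of the 31 subunits, 23 were in the top quartile of wild-type RPKM, whose median gene stood at 0.17, 0.15 and 0.14. Against the median gene of their own quartile, the median subunit was at -0.71, -0.80 and -0.84.

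**Figure D3:**
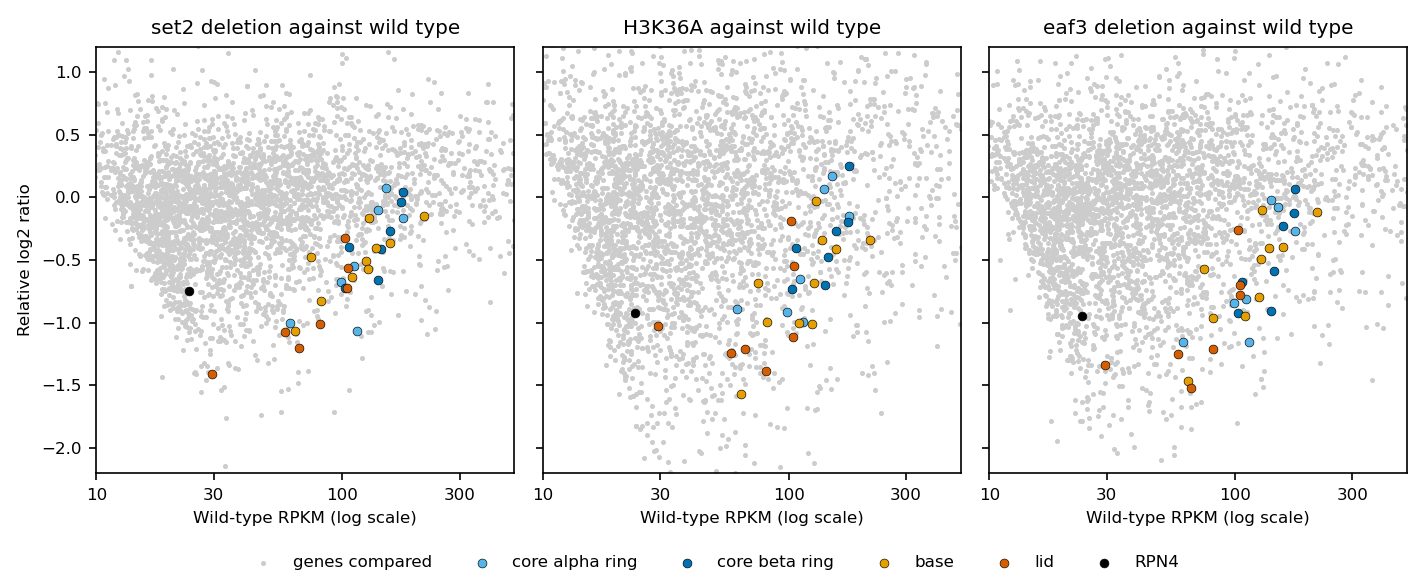
Wild-type RPKM (horizontal axis, log scale) against relative log2 ratio (vertical axis) for the genes compared (grey) and the proteasome genes coloured by subcomplex, in 1 panel per mutant; genes outside the axes are not drawn, and the slanted lower left edge is the minimum mean RPKM. The subunits climb from RPN8 at 29.5 RPKM to RPN10 at 215, with Spearman's rho of 0.82, 0.75 and 0.79, against 0.17, 0.11 and 0.14 for the genes compared in that range.

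The mutants differed less from each other than from wild type. Relative to the median gene of each pair, the median subunit was at -0.02 in H3K36A over the set2 mutant, -0.12 in the eaf3 mutant over the set2 mutant and -0.09 in the eaf3 mutant over H3K36A. No subunit was 1.5-fold apart in any pair in either direction, against 5.91% lower and 7.66% higher, 3.14% and 2.68%, and 7.71% and 3.58% of genes. On the authors' scale H3K36A was below the eaf3 mutant for 6 of 10 base genes, 3 of 14 core genes and 2 of 7 lid genes, against 45.6% of genes. RPN3 had the largest difference upward in the eaf3 mutant over H3K36A, at 0.32, and RPN12 the largest downward, at -0.32. Between H3K36A and the set2 mutant, RPT2 was lowest at -0.48 and RPN8 highest at 0.40. On the authors' scale, the set2 mutant was the highest of the mutants for 24 of 31 subunits, against 53.2% of genes.

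Genes next to the members did not share one direction. By the RefSeq annotation no gene overlaps a member. HXK1, for hexokinase, lies 262 bases beyond RPN12 on the opposite strand and had 29.2 in wild type against 208 in H3K36A, where RPN12 was lower. GCD1, for a translation initiation factor subunit, lies between RPT4 and RPN8 on chromosome XV and had 148, 101, 76.5 and 96.1, with relative log2 of -0.33, -0.63 and -0.26, above both members. The neighbours of PRE8, UTP14 and RPM2, both under the minimum mean, were at -1.26 and -1.23 in the set2 mutant, while PRE8 was at 0.07.

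Other genes of the pathway were grouped by role. Factors that assemble the proteasome had medians near the median gene, -0.18 in the set2 mutant, -0.09 in H3K36A and -0.17 in the eaf3 mutant, over 6 genes compared of 10 listed. HSM3, RPN14 and TMA17 were below the minimum mean, and NAS2 has no row in the table as used here. NAS6, a chaperone of the base, had 38.3 in wild type, 46.0 in the set2 mutant, 56.4 in H3K36A and 38.2 in the eaf3 mutant. POC4, of the alpha ring chaperones, had 22.7, 27.6, 27.8 and 26.6. PBA1 and IRC25, which also act on the alpha ring, went the other way, with 42.2, 26.6, 26.9 and 20.3 for PBA1 and 29.0, 20.6, 14.5 and 16.4 for IRC25. At 1.5-fold, 0, 1 and 1 of the 6 were lower, against 11.5%, 21.2% and 18.4% of genes, and 0, 2 and 0 higher, against 7.08%, 17.9% and 12.4%.

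The list of proteins that bind the finished particle, which here also holds the lid subunit SEM1, had lower and higher members. Over 7 genes compared of 8 listed the medians were -0.77 in the set2 mutant, -0.55 in H3K36A and -0.69 in the eaf3 mutant, with 4, 3 and 4 at least 1.5-fold lower and 0, 2 and 1 higher. The shares of all genes compared were 11.5%, 21.2% and 18.4% lower and 7.08%, 17.9% and 12.4% higher. SEM1, a small lid subunit outside the member list, is among the lower genes counted in each mutant. It had 36.7 in wild type, 13.5 in the set2 mutant, 11.4 in H3K36A and 10.4 in the eaf3 mutant. UBP6, the deubiquitinase bound to the base, had 41.9, 16.5, 15.7 and 10.7. CIC1, a nucleolar protein that binds the core and also acts in ribosome assembly, had 66.2, 20.9, 9.53 and 13.6. The higher members were FUB1, related to a mammalian inhibitor of the core, and SPG5. FUB1 had 23.2, 25.03, 34.6 and 29.1, with relative log2 of 0.33, 0.87 and 0.67. SPG5 had 52.3, 43.2, 73.9 and 28.8, with -0.04, 0.81 and -0.48, and so was higher than the median gene in H3K36A and below it in the eaf3 mutant. HUL5 was below the minimum mean.

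Among regulators of RPN4, 5 of 8 were compared, with median relative log2 of -0.32 in the set2 mutant, -0.76 in H3K36A and -0.67 in the eaf3 mutant. Of these, 2, 3 and 3 were at least 1.5-fold lower, against 11.5%, 21.2% and 18.4% of genes. YAP1, a transcription factor that acts on the RPN4 promoter, had 37.3 in wild type, 15.9 in the set2 mutant, 14.6 in H3K36A and 16.0 in the eaf3 mutant. PDR1, which acts there too, had 19.8, 8.58, 7.96 and 7.39. It was under the minimum in every mutant and was compared only because of its wild-type value. Its place in the counts and medians of this list is therefore not free of the filter. RAD6, the ubiquitin-conjugating enzyme in the breakdown of Rpn4, had 52.1, 35.4, 24.1 and 25.1. The other 2 compared stood near the median gene. PDR3, a relative of PDR1, had 13.2, 11.9, 12.6 and 12.7, with relative log2 of 0.09, 0.25 and 0.30. UBR1, a ubiquitin ligase, had 32.9, 25.5, 28.5 and 25.2, with -0.13, 0.12 and -0.02. Below the minimum mean were the Rpn4 ligase UBR2, with 7.63, 3.76, 2.71 and 2.70, and the partner of that ligase, MUB1, with 17.6, 8.55, 5.17 and 4.93. The heat-shock activator HSF1 was below it too, with 15.8, 5.98, 6.12 and 5.50. Like PDR1, MUB1 and HSF1 were above the minimum in wild type only, but their means left them out. The counts of this list thus depend on where the minimum was set.

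Ubiquitin genes and factors that deliver substrates stood near the median gene, at -0.17, -0.05 and -0.10 over 24 genes compared of 25 listed, with 3, 2 and 4 at least 1.5-fold lower and 0, 2 and 0 higher. Of all genes compared, 11.5%, 21.2% and 18.4% were lower by that much and 7.08%, 17.9% and 12.4% higher. UBI4, the stress-induced polyubiquitin gene, had 116 in wild type, 80.2 in the set2 mutant, 243 in H3K36A and 85.0 in the eaf3 mutant, a relative log2 of 1.38 in H3K36A against -0.30 and -0.09. The ubiquitin-conjugating enzyme genes UBC4 and UBC5 encode close paralogs whose reads may be shared. UBC5 had 33.3, 30.7, 53.7 and 21.2, and UBC4 had 240.1, 109, 113 and 82.5, so that UBC5 was highest in H3K36A and UBC4 in wild type. UFD1, a cofactor of the segregase Cdc48, had 34.5, 17.6, 18.3 and 14.2, and DDI1, a shuttle for ubiquitinated proteins, 31.8, 16.5, 16.5 and 13.4. UBC6, a conjugating enzyme of the endoplasmic reticulum, had 30.0, 17.5, 12.5 and 12.5. DOA4, a ubiquitin hydrolase, was below the minimum mean, with 4.86, 3.25, 3.53 and 2.19.

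**Figure D4:**
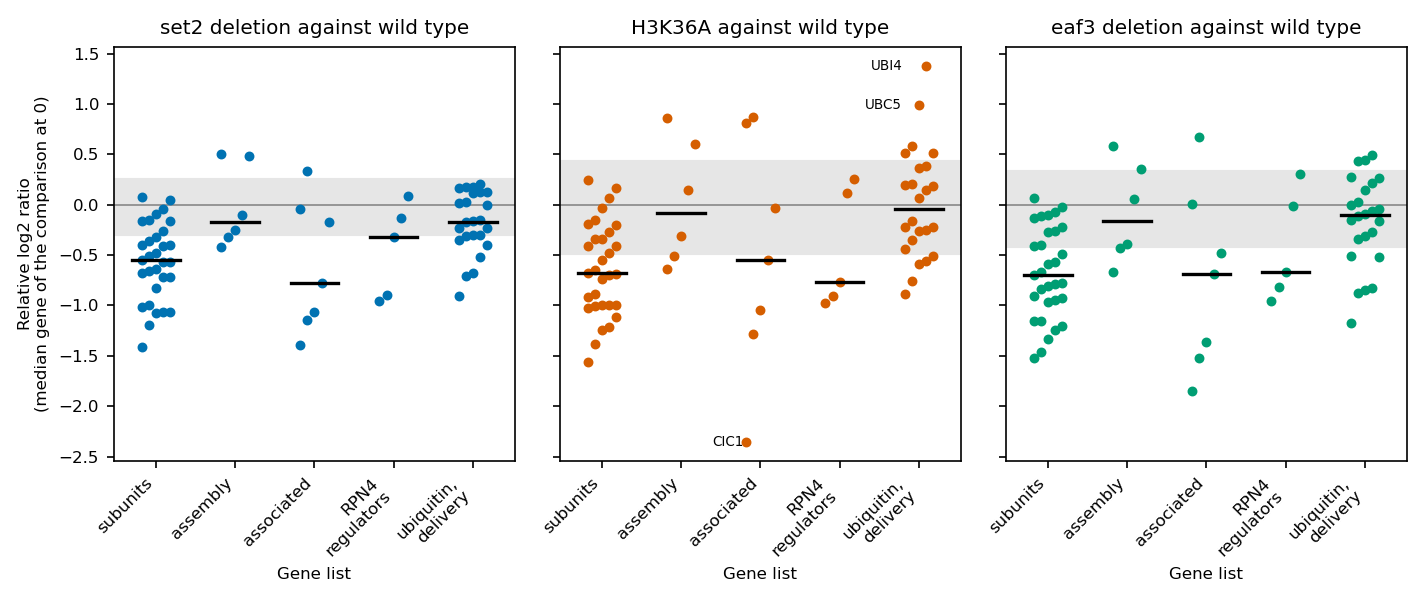
Relative log2 ratio to wild type (vertical axis, 0 is the median gene) of the proteasome subunits and of 4 lists of other pathway genes, in 1 panel per mutant; points are genes compared, black bars medians, and the grey band the lower to upper quartile of all genes compared. The subunits lie mostly below 0, while the ubiquitin and delivery genes centre near it with UBI4 at 1.38 in H3K36A.

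For comparison, the 29 RNA polymerase subunit genes, also parts of large complexes, had medians of -0.15 in the set2 mutant, -0.60 in H3K36A and -0.42 in the eaf3 mutant. The 135 genes of cytosolic ribosomal proteins had 0.18, -0.08 and -0.01. No difference between these groups and the proteasome was tested.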

How the data were processed

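The 8 RNA libraries were rRNA-depleted and made with a stranded kit, per the labels' protocols. CASAVA, TopHat2 2.0.14 and the build sacCer3 are named in the submitters' processing notes. The deposited values are RPKM, which the authors averaged per genotype, per the file headers. The sources used here do not give the tool that computed RPKM, its library size, the gene models or the use of strand. The 9 libraries of immunoprecipitated and input DNA were not analysed here.

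Of 5328 rows, 2 without a gene name were left out, and 3 lines had been emptied for this work. The lowest value in any column is 1.00, so genes below that have no row. A RefSeq table (assembly R64) gave symbols and positions for 5135 genes. Ratios used a pseudocount of 1 (numpy 2.4.6, pandas 2.3.3), which understates changes of low genes; background shares are over genes whose mean RPKM was 10 or more. The computation was tested on ratios simulated without noise, placed only in genes of higher wild-type RPKM than RPN4, RPN8 and RPN11. That test therefore did not cover noise or such low genes.

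The members and lists were chosen with earlier results of these data known. All members are named; for other lists, up to 3 genes with the largest ratios per mutant are named, beside those below the minimum; FUB1, SPG5, PDR3 and UBR1 were added after their values were seen; the systematic name of SPG5 was corrected after values were seen. The promoter motifs planned were not searched, since no promoter sequence was used here.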

Additional observations from a re-analysis of the deposited data

How the results depend on the processing

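No paired analysis was possible because the deposited columns are means per genotype and carry no replicate; leaving out a replicate was not run for the same reason. Under 10 alternatives no ratio or difference of medians changed sign, while counts have no sign to change. Of 180 values, 144 moved by at most 0.1 on the log2 scale or, for counts, 1.5 times. Many of the 144 could not move. A difference between medians of subunit groups is unchanged where every gene is shifted by the same value. That held for all listed genes, the authors' scale and genes at 10 or more in wild type. Leaving out RPN8 could not change RPN4, and counts of subunits at least 1.5-fold higher were 0 throughout. The choices of genes at 10 or more in wild type and of leaving out RPN8 were made after seeing the data. For the set2 mutant, H3K36A and the eaf3 mutant in turn, the authors' scale gave a median subunit of -0.77, -0.999 and -1.05 and RPN4 at -0.97, -1.24 and -1.30, with 22 rather than 13 subunits at least 1.5-fold lower in the set2 mutant. Centring within quartiles of wild-type RPKM gave -0.71, -0.80 and -0.84, RPN4 at -0.63, -0.76 and -0.81, and a regulatory minus core gap of -0.27 in H3K36A; quartiles of length gave -0.45 for that gap. A pseudocount of 5 gave RPN4 at -0.59, -0.71 and -0.72 and that gap as -0.38. Quantile normalization gave RPN4 at -0.58, -0.73 and -0.71, a median of -0.79 in H3K36A and the gap as -0.23. With all listed genes, H3K36A and the eaf3 mutant had medians of -0.55 and -0.57 and RPN4 at -0.79 and -0.82; genes at 10 or more in wild type gave -0.55 and -0.79 in H3K36A. Without RPN8 the gap was -0.40. The cause of these moves was not tested, and depth is unknown.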
